A study of Mus musculus with 12 samples.

Results

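The genes described here encode the proteins of the mitochondrial ribosome. They are the 78 entries, of 35013 in the count table, whose symbol is Mrpl or Mrps followed by a number and, in some, a letter from a to c. There are 49 Mrpl and 29 Mrps genes. All 78 passed the filter on low counts, and the annotation gives each as protein coding, on 17 chromosomes. Pseudogene entries such as Mrpl23-ps1, 6 in all, do not match the pattern and were left out. The mitochondrial ribosome is built inside mitochondria from RNAs encoded by mitochondrial DNA and from proteins encoded in the nucleus, made in the cytosol and imported. It translates only the mRNAs of mitochondrial DNA, which encode core subunits of the respiratory chain and of ATP synthase. Its small subunit reads the mRNA and its large subunit joins the amino acids. Some of its proteins have counterparts in bacterial ribosomes, and others are found only in mitochondrial ribosomes.

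The cells were KP1, a mouse line labelled as lung adenocarcinoma (LUAD), carrying an empty vector (EV) or overexpressing NRF2, the transcription factor of antioxidant and detoxification genes, encoded by Nfe2l2. For 16 h each line was given either DMSO, which is the solvent, or romidepsin at 5 nM, and poly-A RNA was sequenced. Romidepsin blocks histone deacetylases of class I. Each of the 4 combinations of line and treatment has 3 libraries. All groups share the parental line and the culture medium. The labels number the replicates without giving how many transductions made each line, so the p-values rest on the spread among these cultures, which may in part be technical. Per its title, the series asks what blocking histone deacetylases does to the epigenome and metabolism when NRF2 is active.

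Library totals ranged from 16842824 to 28003010 estimated counts, of which the mitochondrial ribosomal protein genes took 0.350 to 0.427%. Levels are given as CPM, counts scaled to 1 common library size with TMM factors. Nfe2l2 read 101 to 103 CPM in EV cells and 281 to 352 CPM in NRF2 cells, both with DMSO. The 352 CPM was that of NRF2 replicate 3. With romidepsin Nfe2l2 read 93.3 to 99.0 CPM in EV cells and 339 to 365 CPM in NRF2 cells. In NRF2 cells it was called higher with romidepsin, with overlapping groups (log2 0.19 ± 0.07, edgeR adjusted p = 0.016). The epithelial markers Krt8, Krt18 and Cdh1 were expressed and Epcam was near 0 with DMSO. Over both lines their sum was 2920 to 4774 CPM with DMSO and 4646 to 7333 CPM with romidepsin, with Krt8, Krt18 and Epcam called higher and Cdh1 lower in both lines. By contrast, the 4 lung lineage markers Nkx2-1, Sftpc, Sftpb and Napsa stayed at or under 0.491 CPM in every library. Of the haematopoietic markers, Cd68 read 2.56 to 4.37 CPM with DMSO and 47.6 to 69.9 CPM with romidepsin, while Ptprc and Cd3e were near 0. The mesenchymal list, nearly all Vim, summed to 2883 to 3507 CPM with DMSO and 5191 to 6153 CPM with romidepsin, and the endothelial list stayed at or under 10.1 CPM in every library. The part of these markers in the results was not tested. Replicate 3 of NRF2 cells with DMSO stood apart: mitochondrially encoded mRNAs took 7.30% of its counts against 4.84 to 6.35% in the other libraries. The median mitochondrial ribosomal protein gene stood at -0.19 log2 units in that library from the mean of the other NRF2 libraries with DMSO. Results that rest on it are also given without it.

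Romidepsin moved these genes in both directions. In EV cells 20 of the 78 genes rose and 31 fell at an adjusted p under 0.05 in the quasi-likelihood test of edgeR, and 27 were not called. Among all 13502 genes tested, 39.1% were called higher and 37.4% lower in this comparison. The shares here were 25.6% higher and 39.7% lower, so with TMM factors rises were fewer than in the background and falls were near it. The median log2 fold change was -0.02, against 0.01 over all genes. The middle part of the genes, from the first to the third quartile, spanned -0.38 to 0.19, a narrower range than the -0.50 to 0.65 of all genes. Only 7 genes rose and 8 fell by at least 1.5-fold, 8.97% and 10.3%, against 25.3% and 20.1% of all genes. Every treated library lay above every control for 25 genes (32.1%) and below for 35 (44.9%), against 41.1% and 39.9% of all genes. Among the 51 called genes the groups overlapped for Mrpl20 only. In these bulk samples, fewer cells of a kind and less RNA per cell cannot be told apart.

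The direction of the counts depends on the scaling of the libraries. With upper-quartile factors 34 genes (43.6%) were higher and 27 (34.6%) lower in EV cells, against 44.4% and 32.5% of all genes. With library size alone 34 were higher and 26 (33.3%) lower, against 44.8% and 32.1%. With both scalings the shares were near the background, so the smaller share of rises was not seen there. Those scalings moved the median of all genes to 0.12 and 0.13 log2 units. The median of the 78 genes minus that of all genes was -0.036 to -0.035 under all 4 scalings. A change of scaling shifts all genes of a comparison by nearly the same amount, so this difference could hardly move.

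The largest rise in EV cells was that of Mrps12 (GRCm38 chr7:28739641-28741820), which encodes a protein of the decoding site of the small subunit. Mrps12 read 27.0, 30.4 and 29.2 CPM with DMSO and 48.5, 51.5 and 56.6 CPM with romidepsin. All 3 treated libraries lay above all 3 controls, and the log2 difference was 0.86 ± 0.07 (SE, edgeR adjusted p = 4.8e-09). Mrpl28 (chr17:26123500-26126613), a large-subunit protein with a bacterial counterpart, went from 77.8, 82.5 and 85.4 CPM to 142, 150.4 and 149.95 CPM (0.85 ± 0.07, edgeR adjusted p = 2.8e-08). Mrpl43 (chr19:45004829-45006442), a mitochondria-specific protein of the large subunit, read 63.4, 63.8 and 64.6 CPM with DMSO and 109, 107 and 110.3 CPM with romidepsin. The replicates of Mrpl43 were the tightest of these examples, and its log2 difference was 0.77 ± 0.05 (edgeR adjusted p = 2.2e-10). Mrpl14 (chr17:45686322-45698495), a large-subunit protein at the face that meets the small subunit, read 27.0, 30.5 and 29.4 CPM against 45.4, 47.2 and 49.04 CPM (0.71 ± 0.10, edgeR adjusted p = 2.4e-05).

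The falls were of similar size. Mrpl54 (chr10:81264713-81266934), mitochondria-specific and in the large subunit, read 31.9, 36.5 and 34.2 CPM with DMSO and 16.1, 16.4 and 16.4 CPM with romidepsin, a 2.10-fold drop (log2 -1.07 ± 0.10, edgeR adjusted p = 8.0e-08). Mrpl19 (chr6:81957851-81965958), a large-subunit protein with a bacterial counterpart, went from 49.2, 54.7 and 51.3 CPM to 30.3, 27.4 and 26.9 CPM (-0.87 ± 0.07, edgeR adjusted p = 6.3e-09). Mrps30 (chr13:118378381-118387252) carries a small-subunit symbol, but its protein is known to sit in the large subunit. It read 48.0, 46.6 and 48.7 CPM with DMSO and 29.9, 29.4 and 23.8 CPM with romidepsin (-0.79 ± 0.09, edgeR adjusted p = 8.9e-07). Mrpl44 (chr1:79776018-79781445), whose protein has a ribonuclease III-like fold, went from 21.1, 24.1 and 22.3 CPM to 13.3, 12.4 and 14.8 CPM (-0.74 ± 0.10, edgeR adjusted p = 2.7e-06). In each of these genes every treated library lay below every control.

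Mrpl23, a protein at the exit of the peptide tunnel, had the lowest fitted value, but it cannot be separated from a copy. It read 4.91, 8.76 and 8.56 CPM with DMSO and 3.24, 2.25 and 2.55 CPM with romidepsin (log2 -1.48 ± 0.29, edgeR adjusted p = 4.8e-04). The processed pseudogene Mrpl23-ps1 matches its transcript at 100% over 540 bases and held 6460 counts over the 12 libraries, against 1253 for Mrpl23. With the counts of both summed, the log2 difference was -0.44 ± 0.10 (edgeR adjusted p = 0.0013), a choice made after the values were seen. Mrpl53 and the gene model Gm42688 are likewise identical over 695 bases. Their sum fell by 0.64 ± 0.11 on the log2 scale (edgeR adjusted p = 6.7e-05), close to the -0.54 of Mrpl53 alone. In all, 20 genes share at least 95% identity over 200 or more bases with a transcript of another gene. For most of them the other gene held at most 6 counts over the 12 libraries or had no entry. Mrps26 matched several counted genes, each over at most 208 bases. Exonic bases of 33 genes also lie in another gene, in 28 of them on the opposite strand, and whether counting used the strand is not given in the sources used here.

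**Figure D1:**
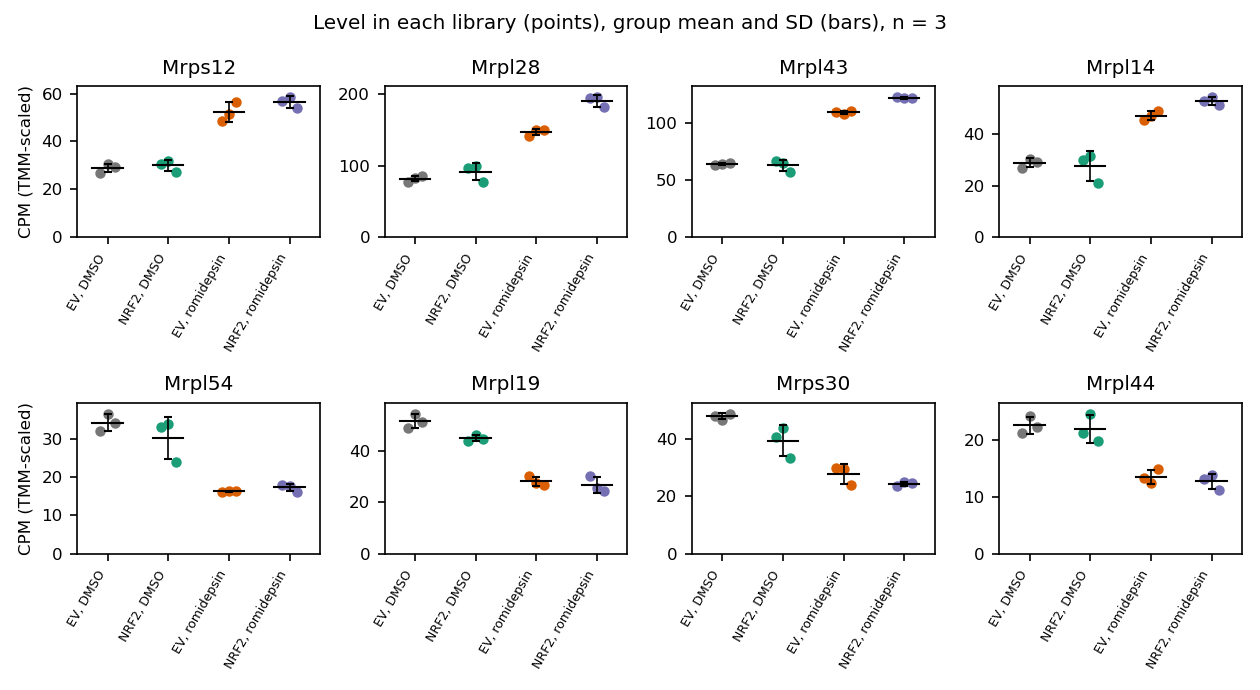
Level of 8 genes in each of the 12 libraries, in CPM on axes that start at 0. Points are libraries, horizontal bars are group means and error bars are SD (n = 3). In the upper row (Mrps12, Mrpl28, Mrpl43, Mrpl14) all romidepsin libraries lie above all DMSO libraries of the same line, and in the lower row (Mrpl54, Mrpl19, Mrps30, Mrpl44) all lie below.

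The promoters of the largest rise and of the 3 largest falls by fitted value in EV cells with a RefSeq entry are printed here, since these genes moved in opposite directions. Mrpl23 is among them by its own counts only, as its log2 difference was -0.44 when summed with its copy. Mrps18b was added after its motifs were seen. Sequences are from RefSeq (GRCm38.p6), 250 bases before to 30 bases after the start of transcription, 5′ to 3′ on the gene's strand, and capitals mark motif matches. Mrps12 lies on the minus strand at chr7:28741792-28742071, Mrpl23 on the plus strand at chr7:142532782-142533061, Mrps30 on the minus strand at chr13:118387223-118387502, Mrpl44 on the plus strand at chr1:79775768-79776047 and Mrps18b on the minus strand at chr17:35916411-35916690.
Mrps12: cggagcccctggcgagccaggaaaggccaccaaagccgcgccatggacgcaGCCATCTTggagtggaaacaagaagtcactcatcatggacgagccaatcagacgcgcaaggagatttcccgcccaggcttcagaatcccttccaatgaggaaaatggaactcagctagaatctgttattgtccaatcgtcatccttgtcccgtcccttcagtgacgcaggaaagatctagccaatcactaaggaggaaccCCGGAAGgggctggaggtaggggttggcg
Mrpl23: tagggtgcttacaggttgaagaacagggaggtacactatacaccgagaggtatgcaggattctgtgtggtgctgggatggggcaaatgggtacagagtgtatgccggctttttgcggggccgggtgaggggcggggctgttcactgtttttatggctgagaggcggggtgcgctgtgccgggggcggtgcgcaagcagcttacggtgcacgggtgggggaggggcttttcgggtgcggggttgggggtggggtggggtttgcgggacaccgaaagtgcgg
Mrps30: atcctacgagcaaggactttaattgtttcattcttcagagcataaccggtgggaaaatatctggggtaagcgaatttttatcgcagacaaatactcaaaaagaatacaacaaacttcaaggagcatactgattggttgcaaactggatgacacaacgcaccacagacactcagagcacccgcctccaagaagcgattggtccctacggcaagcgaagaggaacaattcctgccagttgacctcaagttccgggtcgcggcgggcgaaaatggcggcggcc
Mrpl44: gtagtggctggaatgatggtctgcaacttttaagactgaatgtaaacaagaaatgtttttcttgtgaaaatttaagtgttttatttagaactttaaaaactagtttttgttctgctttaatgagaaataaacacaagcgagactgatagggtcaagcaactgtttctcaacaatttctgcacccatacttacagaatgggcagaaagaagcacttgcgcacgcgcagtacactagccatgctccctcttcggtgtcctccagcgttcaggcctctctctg
Mrps18b: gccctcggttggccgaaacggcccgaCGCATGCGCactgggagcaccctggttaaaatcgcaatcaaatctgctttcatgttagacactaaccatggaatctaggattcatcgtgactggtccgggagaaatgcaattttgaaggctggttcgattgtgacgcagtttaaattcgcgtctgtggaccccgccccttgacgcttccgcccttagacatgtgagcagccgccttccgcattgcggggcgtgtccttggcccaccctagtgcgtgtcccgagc
The capitals in Mrps12 are a YY1 motif on the opposite strand and an ETS motif at the start site. The capitals in Mrps18b are an NRF1 motif on the opposite strand, and a further ETS match of Mrps18b at position 43 lies outside the printed stretch. The windows of Mrpl23, Mrps30 and Mrpl44 held no match to any motif searched. For Mrpl23 the printed stretch lies inside the gene as placed by GENCODE M21, where it starts at chr7:142532686. Its start of transcription thus differs between the 2 sources.

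Genes of mitochondrial ribosomal proteins are known targets of nuclear respiratory factor 1 (gene Nrf1) and of GABP, an ETS factor that was once also named NRF-2. Both are distinct from the NRF2 that was overexpressed here, which binds the antioxidant response element. Motifs were searched on both strands of the full 300-base windows, which RefSeq gave for 69 of the 78 genes. The ETS motif CCGGAAG was found in 26 (37.7%), against 19.6% of the genes tested and 8.86% of all promoters of that length. The YY1 motif AAGATGGC was in 12 (17.4%, against 5.19% and 2.75%) and the NRF1 motif GCGCATGCG in 7 (10.1%, against 4.02% and 1.75%). The E-box CACGTG was in 5 (7.25%, against 11.4% and 7.15%) and the antioxidant response element core TGACNNNGC in 14 (20.3%, against 16.7% and 12.4%). No match of 1 motif overlapped that of another. The ETS motif stood in 6 of 18 genes higher with romidepsin in EV cells, in 9 of 25 lower and in 11 of 26 not called. A match describes the sequence only.

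In NRF2 cells the pattern across genes was close to that in EV cells. Romidepsin raised 23 genes and lowered 35, and 20 were not called, against a background of 40.5% higher and 39.3% lower over all genes. The shares here were 29.5% higher and 44.9% lower. The median was -0.07, against 0.01 over all genes. Without replicate 3 of the DMSO group the counts were 21 higher and 39 lower. With upper-quartile factors 29 (37.2%) were higher and 27 (34.6%) lower, against 45.0% and 35.0% of all genes. With library size alone 35 (44.9%) were higher and 26 (33.3%) lower, against 46.3% and 33.8%. The median of all genes then moved to 0.12 and 0.15.

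Mrpl28 had the largest rise, from 96.8, 100.3 and 77.7 CPM to 195, 196 and 182 CPM (log2 1.06 ± 0.07, edgeR adjusted p = 1.2e-09). Mrpl43 went from 66.2, 64.7 and 57.0 CPM to 122, 121 and 121 CPM, a log2 difference of 0.95 ± 0.05 (edgeR adjusted p = 7.6e-12). Mrpl14 read 30.03, 31.7 and 21.1 CPM with DMSO and 53.0, 54.3 and 51.4 CPM with romidepsin (0.92 ± 0.10, edgeR adjusted p = 1.1e-06). Replicate 3 was the lowest DMSO library for each of these genes, and without it the differences were 0.93, 0.87 and 0.76, all called. Mrps12 went from 30.7, 32.0 and 27.4 CPM to 57.1, 58.5 and 53.8 CPM (0.91 ± 0.07, edgeR adjusted p = 1.4e-09), or 0.83 without replicate 3 of the DMSO group.

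The falls in NRF2 cells involved the same names. Mrpl54 read 32.9, 33.8 and 23.9 CPM with DMSO and 18.0, 17.7 and 16.1 CPM with romidepsin (log2 -0.81 ± 0.10, edgeR adjusted p = 1.8e-06). Mrpl44 went from 21.2, 24.5 and 19.7 CPM to 13.2, 13.7 and 11.2 CPM (-0.78 ± 0.10, edgeR adjusted p = 1.2e-06), and Mrpl19 from 43.9, 46.4 and 44.9 CPM to 30.4, 25.5 and 24.4 CPM (-0.75 ± 0.07, edgeR adjusted p = 4.3e-08). The groups did not overlap for any of these 3 genes. Without replicate 3 of the DMSO group the differences of Mrpl54, Mrpl44 and Mrpl19 were -0.96, -0.86 and -0.77, all called. Mrpl23 read 8.11, 5.44 and 6.97 CPM against 2.29, 2.46 and 4.51 CPM (-1.18 ± 0.28, edgeR adjusted p = 0.0021), and summed with its copy it was -0.45 ± 0.10 (edgeR adjusted p = 9.8e-04).

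The romidepsin comparisons in the 2 lines share no library. Called higher in both were 18 genes (23.1%, against 35.7% of all genes), and called lower in both were 31 (39.7%, against 34.6%). None was called in opposite directions, against 0.474% of all genes. A further 18 were called in neither line. Across the 78 genes the log2 differences in EV and NRF2 cells had a Pearson correlation of 0.962 (0.921 over all genes), and 94.9% had the same sign (90.7% of all genes). These are descriptions across genes, which are not independent replicates. Of the 18 and 31, all but Mrpl20 were also called without replicate 3 of NRF2 cells with DMSO.

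**Figure D2:**
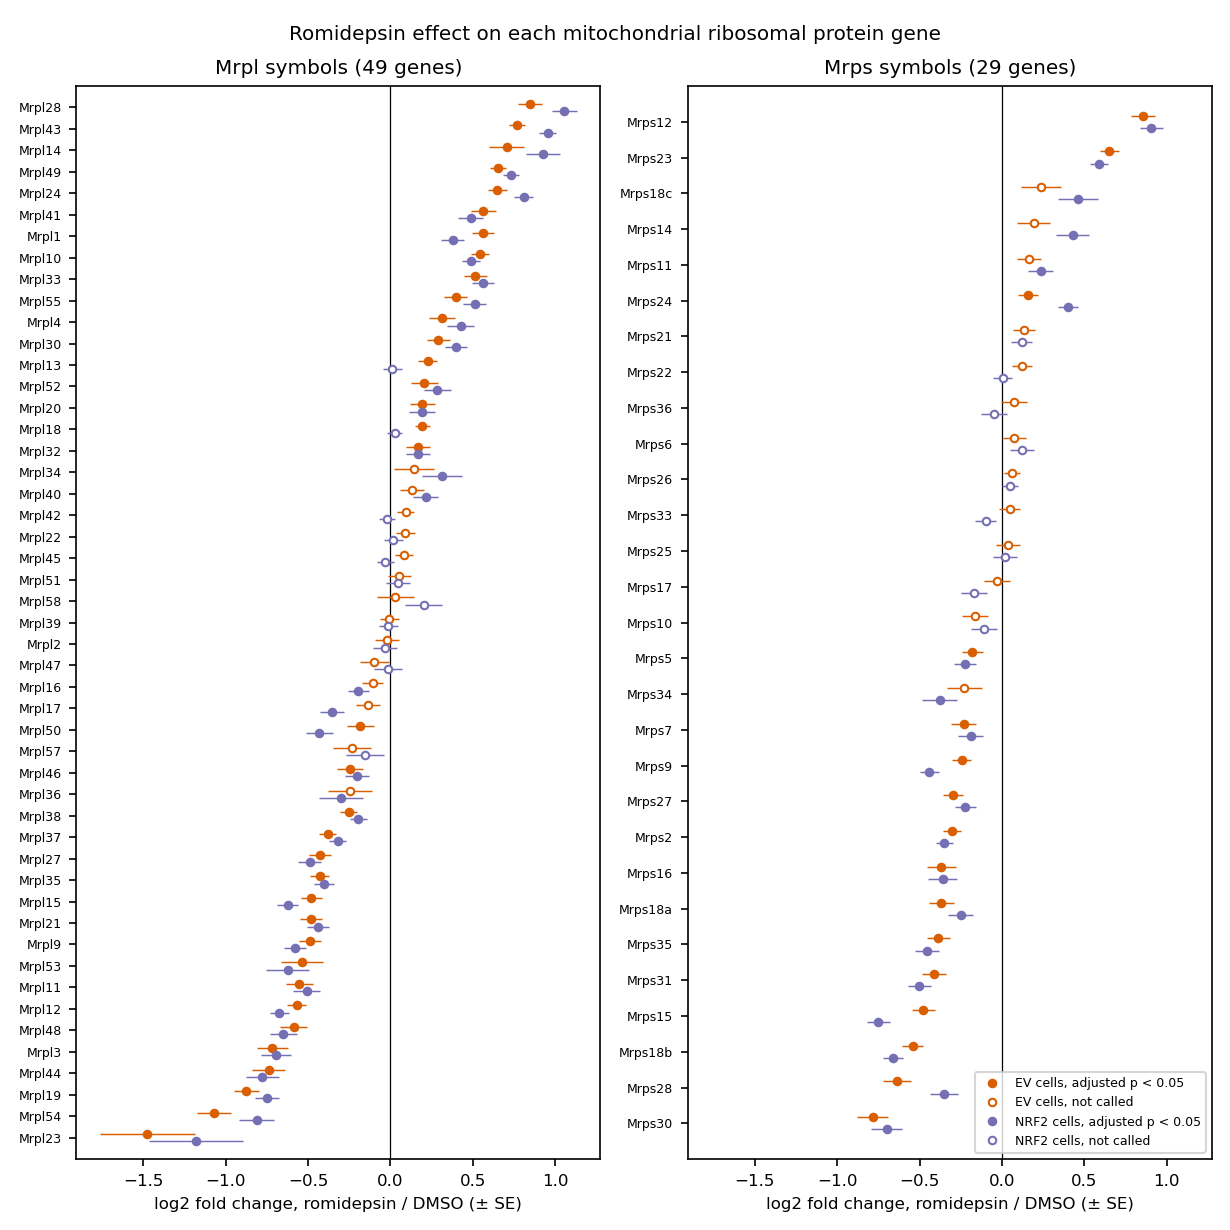
Log2 fold change of each gene with romidepsin against DMSO, with SE, in EV (orange) and NRF2 cells (purple), for the 49 Mrpl genes and the 29 Mrps genes, sorted by the value in EV cells. Filled points have an edgeR adjusted p under 0.05. The series run from Mrpl28 and Mrps12 at the top to Mrpl23 and Mrps30 at the bottom, with no gene filled on opposite sides of 0.

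The calls are given here by symbol and then by the subunit that holds the protein. In EV cells 17 of 49 Mrpl genes rose (34.7%) and 18 fell (36.7%). Of 29 Mrps genes, 3 rose (10.3%) and 13 fell (44.8%), against 39.1% higher and 37.4% lower over all genes. In NRF2 cells the counts were 17 (34.7%) and 21 (42.9%) for Mrpl, and 6 (20.7%) and 14 (48.3%) for Mrps. The shares of all genes there were 40.5% and 39.3%. By location and ancestry in EV cells, 12 of 29 large-subunit proteins with a bacterial counterpart rose (41.4%) and 10 fell (34.5%). Of 22 mitochondria-specific ones, 5 rose (22.7%) and 10 fell (45.5%). For the small subunit, 2 of 16 with a bacterial counterpart rose (12.5%) and 7 fell (43.8%). Of 10 mitochondria-specific ones, 1 rose (10%) and 4 fell (40%). This split counts Mrps18b as mitochondria-specific, although it is a paralogue of a bacterial protein, as described below. The difference between these classes was not tested.

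The levels were also summed by symbol within each library. The Mrpl genes together gave 2473, 2681 and 2713 CPM in EV cells with DMSO and 2678, 2741 and 2739 CPM with romidepsin. The Mrps genes gave 1344, 1439.6 and 1489 CPM with DMSO and 1311, 1328 and 1304 CPM with romidepsin. The ratio of the sums does not depend on the scaling: it was 1.84, 1.86 and 1.82 in EV cells with DMSO and 2.04, 2.06 and 2.10 with romidepsin. It was 1.92, 1.94 and 1.84 in NRF2 cells with DMSO and 2.242, 2.1895 and 2.1854 with romidepsin. In both lines every romidepsin library lay above every DMSO library. A sum gives abundant genes more weight. With each gene weighted alike, the mean log2 CPM of the Mrpl genes minus that of the Mrps genes was 0.08 to 0.13 in EV cells with DMSO and 0.12 to 0.15 with romidepsin, which overlap. In NRF2 cells it was 0.13 to 0.16 and 0.19 to 0.22, without overlap. Counts are not per length, so the ratio compares libraries and is no ratio of molecules. The total over all 78 genes was 3817 to 4202 CPM in EV cells with DMSO and 3989 to 4069 CPM with romidepsin, and these ranges overlap. That depends on the scaling: as a share of all counts the genes took 0.374 to 0.402% with DMSO and 0.420 to 0.427% with romidepsin, without overlap. In NRF2 cells the shares were 0.350 to 0.394% and 0.413 to 0.426%, also without overlap.

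**Figure D3:**
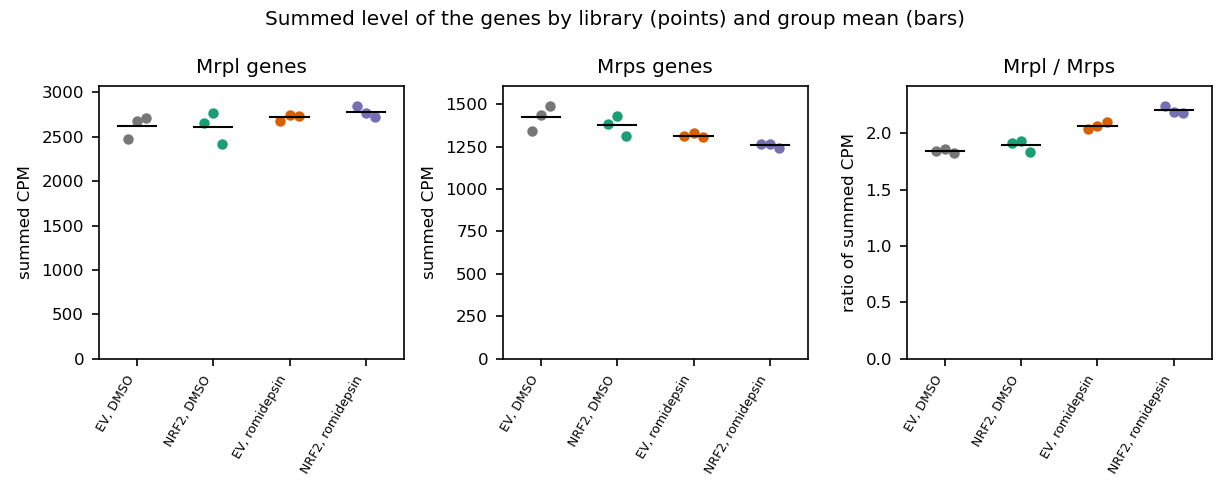
Summed level of the 49 Mrpl genes, summed level of the 29 Mrps genes, both in CPM, and the ratio of these sums, in each library (points) with group means (bars). Axes start at 0. The ratio lies between 1.82 and 1.94 in the 6 DMSO libraries and between 2.04 and 2.24 in the 6 romidepsin libraries.

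Genes whose proteins work side by side could move in opposite directions. The stalk of the large subunit, which recruits translation factors, is made of the proteins of Mrpl10 and Mrpl12, with that of Mrpl11 at its base. Mrpl10 rose in EV cells from 66.1, 76.3 and 77.3 CPM to 105, 108 and 108 CPM (log2 0.54 ± 0.06, edgeR adjusted p = 9.3e-08). Mrpl12 fell from 129, 147 and 152 CPM to 92.1, 99.0 and 97.2 CPM (-0.57 ± 0.06, edgeR adjusted p = 8.6e-08). Mrpl11 fell from 63.2, 75.1 and 70.4 CPM to 43.7, 48.5 and 50.03 CPM (-0.55 ± 0.08, edgeR adjusted p = 2.6e-05). In NRF2 cells the same genes changed by 0.49, -0.67 and -0.51, each called.

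Mrps18a, Mrps18b and Mrps18c are paralogues of 1 bacterial protein; the product of the first sits in the large subunit and those of the others in the small subunit. Mrps18b fell in EV cells from 105, 114 and 124 CPM to 76.9, 80.1 and 78.4 CPM (log2 -0.54 ± 0.06, edgeR adjusted p = 2.8e-07). It fell in NRF2 cells from 102, 106 and 93.3 CPM to 61.0, 65.8 and 64.2 CPM (-0.66 ± 0.06, edgeR adjusted p = 2.0e-08). Mrps18a fell too, from 57.5, 64.3 and 69.4 CPM to 48.5, 50.2 and 49.7 CPM in EV cells (-0.37 ± 0.08, edgeR adjusted p = 4.2e-04). In NRF2 cells Mrps18a changed by -0.25 (edgeR adjusted p = 0.0070), a call that upper-quartile factors and library size alone did not give. Mrps18c read 21.6, 22.5 and 25.3 CPM with DMSO and 28.3, 28.03 and 25.8 CPM with romidepsin in EV cells and was not called (0.24 ± 0.12, edgeR adjusted p = 0.089). In NRF2 cells it was 25.7, 24.6 and 16.7 CPM against 33.0, 30.9 and 29.3 CPM, and called higher (0.46 ± 0.12, edgeR adjusted p = 0.0027). Replicate 3 was again the lowest DMSO library, and without it the difference was 0.29 and called. The interaction for Mrps18c was not called (edgeR adjusted p = 0.42).

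Some entries bear the symbol with another role. The product of Mrps36 is now known as a component of the 2-oxoglutarate dehydrogenase complex. Mrps36 read 22.8 to 24.4 CPM in EV cells with DMSO and 24.1 to 26.4 CPM with romidepsin, ranges that overlap (log2 0.08 ± 0.08, edgeR adjusted p = 0.39). Mrpl58, related to release factors and able to free stalled peptides, read 27.6, 29.1 and 33.6 CPM against 29.2, 32.0 and 31.3 CPM (0.03 ± 0.11, edgeR adjusted p = 0.82). Neither was called in NRF2 cells, where the values were -0.05 and 0.20.

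NRF2 overexpression with DMSO moved fewer of these genes and by less. It raised 10 and lowered 12, and 56 were not called, against 19.3% higher and 16.9% lower over all genes. The shares here were 12.8% and 15.4%, both under the background, and no change reached 1.5-fold, against 6.28% higher and 4.10% lower of all genes. The median was -0.04, against -0.01 over all genes. Every NRF2 library lay above every EV library for 6 genes (7.69%) and below for 14 (17.9%), against 21.8% and 20.7% of all genes. Of the 22 called genes, 16 had groups that did not overlap. Leaving out EV replicate 3 with DMSO took the number lower from 12 to 1, and leaving out EV replicate 2 took it to 4. Leaving out EV replicate 1 or NRF2 replicate 2 took the number higher from 10 to 6. Without NRF2 replicate 3 the counts were 14 higher and 12 lower. With library size alone they were 8 (10.3%) and 17 (21.8%), against 17.1% and 21.4% of all genes.

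Mrps6, a small-subunit protein with a bacterial counterpart, had the largest difference. It read 52.1, 55.9 and 56.4 CPM in EV cells and 43.0, 40.5 and 33.7 CPM in NRF2 cells (log2 -0.48 ± 0.07, edgeR adjusted p = 4.2e-05), and without NRF2 replicate 3 the difference was -0.39 and called. Exons of Mrps6 overlap those of Gm49711 and Slc5a3 on the same strand, and a Gm49711 transcript matches Mrps6 at 100% over 306 bases. No counts are given under the symbol Gm49711, so they could not be summed with those of Mrps6. Mrps30 read 48.0, 46.6 and 48.7 CPM against 40.6, 43.8 and 33.3 CPM (-0.28 ± 0.09, edgeR adjusted p = 0.024), or -0.17 without NRF2 replicate 3. Its call was lost without EV replicate 1 or 3. Mrps31, a mitochondria-specific small-subunit protein, read 36.6, 38.5 and 41.4 CPM against 31.3, 33.3 and 36.6 CPM (-0.21 ± 0.07, edgeR adjusted p = 0.025). Mrpl9 read 97.0, 104 and 105 CPM against 88.5, 96.4 and 80.7 CPM (-0.20 ± 0.07, edgeR adjusted p = 0.025). The calls of Mrps31 and Mrpl9 were both lost without EV replicate 2 or 3 or NRF2 replicate 1, and that of Mrps31 also without NRF2 replicate 2.

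The genes higher in NRF2 cells had overlapping groups in part. Mrps16 read 22.1, 23.3 and 25.1 CPM in EV cells and 32.0, 31.1 and 24.4 CPM in NRF2 cells (log2 0.31 ± 0.09, edgeR adjusted p = 0.0087). NRF2 replicate 3 lay within the EV range, and without it the difference was 0.42. Mrpl52 showed the same, with 35.7, 37.9 and 39.7 CPM against 49.1, 50.7 and 37.8 CPM (0.29 ± 0.08, edgeR adjusted p = 0.013), or 0.40 without that library, and its call was lost without EV replicate 1 or NRF2 replicate 1 or 2. Mrpl41, near the exit of the peptide tunnel, read 22.3, 23.0 and 24.2 CPM against 29.5, 30.8 and 24.6 CPM, without overlap (0.29 ± 0.08, edgeR adjusted p = 0.0078). Mrps5, near the entry of the mRNA channel, read 116, 120.3 and 119.5 CPM against 132, 134 and 163 CPM (0.27 ± 0.06, edgeR adjusted p = 0.0036). Here NRF2 replicate 3 was the highest, and without it the difference was 0.16.

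Under romidepsin, NRF2 cells had 12 genes higher and 16 lower than EV cells, and 50 were not called, against 23.0% higher and 22.4% lower over all genes. The shares were 15.4% and 20.5%, and no change reached 1.5-fold, against 7.81% higher and 4.23% lower of all genes. The groups did not overlap for 20 genes higher (25.6%) and 24 lower (30.8%), against 30.8% and 30.4% of all genes, and these include all 28 called genes. Leaving out NRF2 replicate 1 with romidepsin took the number higher to 6. Leaving out NRF2 replicate 3 with DMSO, which is in neither group compared but enters the shared spread, took the number lower to 25.

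Mrpl28 was highest in this comparison, at 142, 150.4 and 149.95 CPM in EV and 195, 196 and 182 CPM in NRF2 cells (log2 0.37 ± 0.07, edgeR adjusted p = 6.0e-04). Mrpl52 read 45.0, 41.6 and 44.3 CPM against 55.5, 56.4 and 56.6 CPM (0.36 ± 0.08, edgeR adjusted p = 0.0017). Mrps16 read 18.0, 17.9 and 18.8 CPM against 22.4, 22.4 and 23.8 CPM (0.32 ± 0.09, edgeR adjusted p = 0.0072). Romidepsin libraries of NRF2 cells were thus all above those of EV cells for these genes, as they were for Mrpl11, at 43.7, 48.5 and 50.03 CPM against 61.9, 57.8 and 54.3 CPM (0.29 ± 0.09, edgeR adjusted p = 0.012). The call of Mrpl11 was lost without replicate 1 of either group.

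Mrps6 was again the lowest, at 59.6, 56.2 and 57.6 CPM in EV and 42.5, 40.7 and 45.0 CPM in NRF2 cells (log2 -0.44 ± 0.07, edgeR adjusted p = 7.6e-05). Romidepsin itself did not move Mrps6 past the threshold in either line. Mrps9, a small-subunit protein with a bacterial counterpart, read 41.3, 39.9 and 39.2 CPM against 32.3, 31.9 and 29.7 CPM (-0.36 ± 0.06, edgeR adjusted p = 1.0e-04). Mrps17 read 71.1, 73.0 and 70.8 CPM against 59.1, 58.8 and 54.0 CPM (-0.32 ± 0.08, edgeR adjusted p = 0.0036). Mrps18b read 76.9, 80.1 and 78.4 CPM against 61.0, 65.8 and 64.2 CPM (-0.30 ± 0.06, edgeR adjusted p = 7.9e-04).

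The NRF2 comparisons with DMSO and with romidepsin also share no library. In both, 8 genes were higher and 8 lower, 10.3% each, against 12.5% and 10.1% of all genes. None was called in opposite directions, against 1.26% of all genes, and 44 were called in neither. Across the 78 genes the correlation was 0.718 (0.604 over all genes), given as a description.

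**Figure D4:**
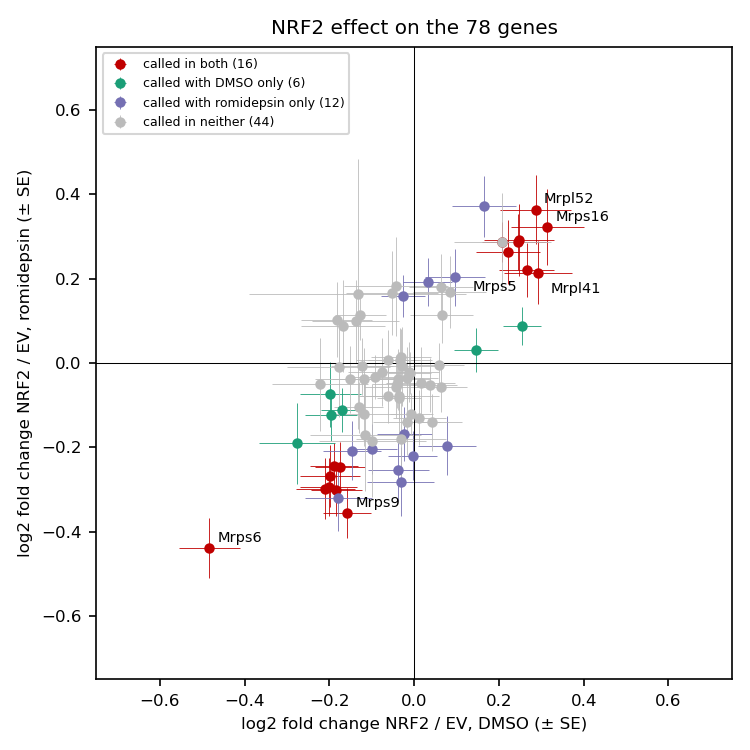
Log2 fold change of NRF2 against EV cells with DMSO (horizontal) and with romidepsin (vertical) for the 78 genes, with SE. Red points are called in both comparisons (16), green with DMSO only (6), purple with romidepsin only (12) and grey in neither (44). The red points lie in the upper right and lower left quadrants, with Mrps6 farthest from the origin.

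The interaction asks whether romidepsin acted differently in the 2 lines. None of the 78 genes was called by edgeR, against 5.53% of all genes with a higher and 10.2% with a lower romidepsin effect in NRF2 cells. At an unadjusted p under 0.05 there were 8 of the 78 genes, against 3922 of all 13502 genes tested. DESeq2, limma-voom and limma-trend also called none, with 6, 7 and 7 genes at an unadjusted p under 0.05. The smallest adjusted p was that of Mrps24 (log2 0.24 ± 0.08, edgeR adjusted p = 0.062), which read 41.2, 41.3 and 42.3 CPM in EV cells with DMSO and 47.6, 47.9 and 44.0 CPM with romidepsin. In NRF2 cells it read 38.1, 41.2 and 34.6 CPM and 50.03, 51.0 and 49.8 CPM.
Without replicate 3 of NRF2 cells with DMSO, 8 genes had a lower romidepsin effect in NRF2 cells: Mrpl13, Mrpl17, Mrpl18, Mrpl53, Mrps9, Mrps15, Mrps17 and Mrps34. In that fit 22.2% of all genes were called. Without replicate 1 of that group, 3 were lower and 1 higher, and without replicate 2, 1 was higher. Leaving out EV replicate 2 with DMSO or NRF2 replicate 3 with romidepsin gave 1 lower gene, Mrps15.

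Subunits that carry other symbols also moved in both directions. Of 5, 1 rose (20%) and 2 fell (40%) in EV cells, against 39.1% and 37.4% of all genes. In NRF2 cells 1 rose (20%) and 3 fell (60%), against 40.5% and 39.3%. Gadd45gip1, a large-subunit protein also called CRIF1, fell from 99.5, 104 and 107 CPM to 48.7, 43.4 and 49.4 CPM in EV cells (log2 -1.13 ± 0.12, edgeR adjusted p = 2.6e-06). Chchd1, a small-subunit protein, fell from 39.3, 39.5 and 42.2 CPM to 26.4, 25.4 and 22.6 CPM (-0.70 ± 0.09, edgeR adjusted p = 3.1e-06). Dap3, the GTP-binding protein of the small subunit, rose from 111, 107 and 115 CPM to 143, 149 and 148 CPM (0.40 ± 0.05, edgeR adjusted p = 2.8e-06).

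Other genes of mitochondrial translation were mixed as well. Over all genes 39.1% rose and 37.4% fell in EV cells, and 40.5% and 39.3% in NRF2 cells. Of 10 translation factors, 1 rose (10%) and 4 fell (40%) in EV cells, and 1 rose (10%) and 6 fell (60%) in NRF2 cells. Guf1, a GTPase related to bacterial elongation factor 4, fell by 1.01 ± 0.06 in EV and 1.26 ± 0.07 in NRF2 cells on the log2 scale (edgeR adjusted p = 1.1e-10 and 6.8e-12). Tufm, the elongation factor that delivers tRNAs, was the riser, by 0.25 ± 0.06 and 0.44 ± 0.06 (edgeR adjusted p = 7.4e-04 and 1.4e-06). Of 20 assembly and RNA-modifying factors, 5 rose (25%) and 11 fell (55%) in EV cells, and 6 rose (30%) and 8 fell (40%) in NRF2 cells. Mpv17l2, an inner-membrane assembly factor, rose by 1.02 ± 0.08 and 1.35 ± 0.08 in the lines with EV and NRF2 (edgeR adjusted p = 3.7e-09 and 4.0e-11). Dhx30, a helicase, fell by 0.60 ± 0.05 and 0.51 ± 0.05 (edgeR adjusted p = 1.1e-08 and 8.7e-08). Of 9 genes of mitochondrial transcription, mRNA care and DNA copying, 1 rose (11.1%) and 5 fell (55.6%) in each line. Among them Tefm, a transcription elongation factor, was at -0.58 ± 0.09 and -0.83 ± 0.10 (edgeR adjusted p = 2.0e-05 and 2.9e-07).

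Known regulators of mitochondrial gene expression mostly fell. Of 10 tested, 2 rose (20%) and 7 fell (70%) with romidepsin in each line. Over all genes 39.1% rose and 37.4% fell in EV cells, and 40.5% and 39.3% in NRF2 cells. The coactivator Pprc1 went from 255, 265 and 269 CPM to 96.7, 97.3 and 88.1 CPM in EV cells (log2 -1.48 ± 0.05, edgeR adjusted p = 1.9e-14) and fell by 1.76 ± 0.05 in NRF2 cells. Nrf1 went from 48.7, 47.6 and 50.2 CPM to 27.7, 29.2 and 27.7 CPM (-0.79 ± 0.06, edgeR adjusted p = 1.2e-09), and Hcfc1, a chromatin-bound cofactor, changed by -1.30 ± 0.05 (edgeR adjusted p = 2.0e-13). The risers were the coactivators Ppargc1a and Ppargc1b, the latter at or under 0.786 CPM in every EV library. Whether these changes bear on the ribosomal protein genes was not tested.

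For the mRNAs that the mitochondrial ribosome translates, most differences with romidepsin were positive in EV cells and negative in NRF2 cells. In EV cells 12 of 13 were positive (median log2 0.17), and in NRF2 cells 9 of 13 were negative (median -0.12). Of the 13 mitochondrially encoded protein genes, 3 rose (23.1%) and none fell with romidepsin in EV cells, against 39.1% and 37.4% of all genes. The 3 were mt-Nd1, mt-Nd2 and mt-Nd4. In NRF2 cells none rose and 4 fell (30.8%), against 40.5% and 39.3% of all genes. The 4 were mt-Nd6, mt-Atp8, mt-Co1 and mt-Cytb, at -1.18, -0.35, -0.26 and -0.25. That comparison holds the DMSO library with the 7.30% share, and without it these were -0.80, -0.22, -0.10 and -0.10, all called. None of the 13 was called in the interaction, which also holds that library, but all 13 values were negative (median -0.28). At an unadjusted p under 0.05 in edgeR there were 4. In EV cells mt-Nd4 read 4607 to 4908 CPM with DMSO and 5542 to 5806 CPM with romidepsin.

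Cytosolic ribosomal proteins gave a different picture under the same treatment. The 81 tested were chosen by symbol and include genes named as like them. None rose and 66 fell in EV cells (81.5%, against 37.4% of all genes). In NRF2 cells none rose and 64 fell (79.0%, against 39.3%). Their medians were -0.46 and -0.48, against -0.02 and -0.07 for the mitochondrial ones. The difference between these groups was not tested.

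**Figure D5:**
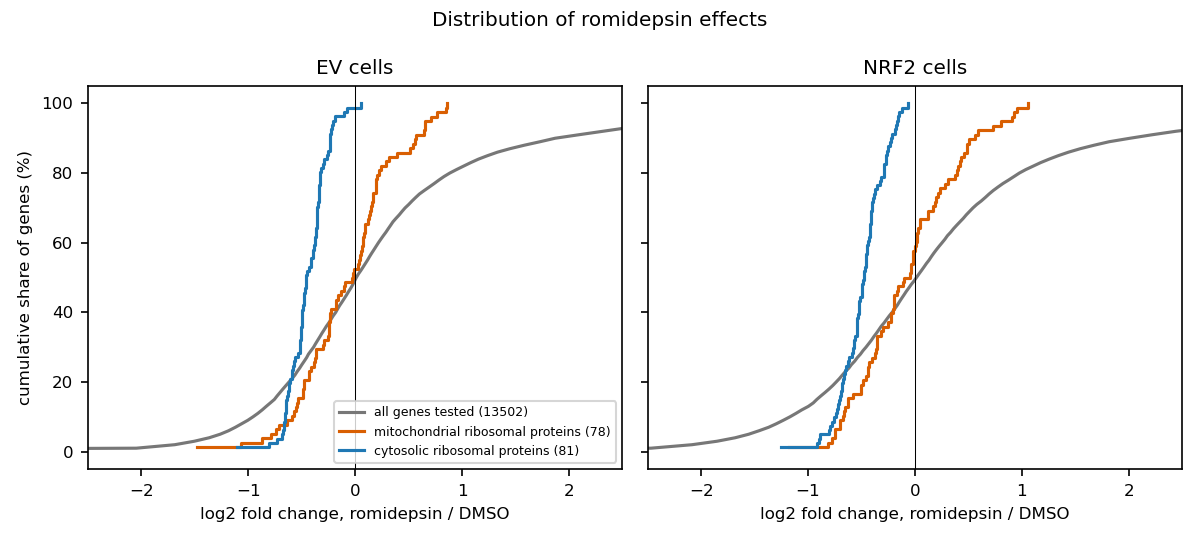
Cumulative share of genes (percent, vertical) by log2 fold change with romidepsin (horizontal) in EV and NRF2 cells, for all 13502 genes tested (grey), the 78 mitochondrial (orange) and 81 cytosolic ribosomal protein genes (blue). The orange curve crosses 0 near the grey one and is steeper, and the blue curve lies to the left of 0 for nearly all genes.

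Neighbours across shared start regions moved in all combinations. For 18 of the 78 genes (23.1%) a protein-coding gene started on the opposite strand within 1000 bases upstream, against 10.1% of tested protein-coding genes. Opposite-strand starts that lie downstream, so that the genes overlap, were not counted, as for Mrpl46 and Mrps11. In EV cells 2 pairs rose together, 2 fell together, 2 genes that rose had a partner that fell, and 2 that fell had a partner that rose. Mrps12 starts 172 bases from Sars2, which encodes the mitochondrial seryl-tRNA synthetase. Sars2 fell by 0.45 on the log2 scale in EV cells (edgeR adjusted p = 5.1e-04), while Mrps12 rose by 0.86. Mrpl54 starts 26 bases from Apba3, which fell by 0.35 (edgeR adjusted p = 0.0077), alongside the drop by 1.07 of Mrpl54. Mrpl51 starts 100 bases from the condensin gene Ncapd2, which fell by 1.24 (edgeR adjusted p = 3.2e-14), whereas Mrpl51 was not called (0.05, edgeR adjusted p = 0.50).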

How the data were processed

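Poly-A RNA of 12 libraries was sequenced. Per the submitters' processing notes, the authors used bcl2fastq 2.19, kallisto 0.44.0, DESeq2 and the build GRCm38. The deposited table used here gives, for every gene symbol, a kallisto count estimate that the authors rounded to a whole-number count. A second table holds a signal, which the authors made by dividing each count by 1 factor per library, and it served only as an alternative. The annotation release behind the counts is not given in the sources used here. Columns were matched to samples by the name in each sample's description.

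The counts were filtered with edgeR 4.0.16 (filterByExpr), which kept 13502 of 35013 genes, and tested with its quasi-likelihood test (robust, TMM factors, prior count 0.125, two-sided) in 1 fit of all 12 libraries, 1 coefficient for each group, leaving 8 residual degrees of freedom. The 5 contrasts were adjusted by Benjamini-Hochberg over all genes tested, and an adjusted p under 0.05 was called. The standard error is the absolute log2 fold change over the square root of F. The members, lists and the rule for named genes were chosen with earlier results of these data known. The rule gave library values for the 4 largest called rises and falls at a mean of at least 5 CPM in each pairwise comparison and for the stalk, bS18, Mrps36, Mrpl44 and Mrpl58 genes, and up to 4 called members of each other list. Loci came from GENCODE M21 and near-identical transcripts from blastn 2.17.0. Results were recomputed with scaling by library size, RLE or the upper quartile, other filters, DESeq2 1.42.0, limma 3.58.1 (voom, and trend on the deposited signal with a pseudocount of 1), stricter thresholds, the compared groups alone, a replicate block and leaving out each library. The pipeline was tested on simulated data.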

Additional observations from a re-analysis of the deposited data

Results flagged for a closer look

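No mitochondrial ribosomal protein gene had a romidepsin effect that differed between the lines by the interaction test of edgeR, but 5 genes of the related lists did. Each is given here because its romidepsin effect was lower in NRF2 than in EV cells at an adjusted p under 0.05. For Gabpb1, a GABP subunit, the effect was lower by 0.39 on the log2 scale (-0.393, SE 0.09, edgeR adjusted p = 0.0069), from -0.65 in EV to -1.04 in NRF2 cells. For Pprc1 the difference was -0.278 (edgeR adjusted p = 0.0088) and for Nrf1 -0.308 (edgeR adjusted p = 0.020). The call of Nrf1 was lost when replicate 2 of either EV group was left out. For Gfm2, a factor of ribosome recycling, the difference was -0.249 (edgeR adjusted p = 0.043), and 11 of 21 alternatives did not give the call. For Ppargc1b it was -2.66 (edgeR adjusted p = 0.044), a fitted value for a gene with no count in 2 of the 3 EV libraries with DMSO, and 12 of 21 alternatives did not give the call.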

How the results depend on the processing

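No called gene among the 78 changed sign in any alternative. Of the calls, 42 of 51 with romidepsin in EV cells, 45 of 58 with romidepsin in NRF2 cells, 7 of 22 for NRF2 with DMSO and 16 of 28 for NRF2 with romidepsin were given by every alternative fit. At an adjusted p under 0.01, NRF2 with DMSO had 6 higher and 1 lower, and NRF2 with romidepsin 6 higher. At 1.5-fold or more, romidepsin had 7 higher and 8 lower in EV cells and 7 and 12 in NRF2 cells, and both NRF2 comparisons had 0. Of all 13502 genes tested, 3729 were higher and 3266 lower by that rule with romidepsin in NRF2 cells. With only the groups compared, NRF2 with DMSO had 6 higher and 3 lower, and NRF2 with romidepsin 27 lower. With upper-quartile factors 34 were higher in EV cells, and with library size alone 34 in EV and 35 in NRF2 cells. In the interaction, library size alone gave 1 higher (Mrps24) and no filter 1 lower (Mrps15). The cause of these moves was not tested. Leaving out 1 library at a time gave 6 to 14 higher and 1 to 14 lower for NRF2 with DMSO, 16 to 27 and 29 to 36 for romidepsin in EV cells, and 19 to 24 and 32 to 39 in NRF2 cells. It gave 6 to 17 and 12 to 25 for NRF2 with romidepsin, and 0 to 1 and 0 to 8 for the interaction. No share of all genes is given for the pairwise counts at 0.01, with only the groups compared or with 1 library left out. The median of the 78 genes became 0.09 and 0.10 in EV cells and 0.04 and 0.07 in NRF2 cells with upper-quartile factors and library size alone. Ptcd3, a subunit with another symbol, turned from -0.12 to 0.017 in NRF2 cells with library size alone. The main fit did not pair libraries by replicate number. In their deviations from the group means, same-numbered libraries had correlations of -0.123 to 0.063 and differently numbered ones of -0.094 to 0.112. With 3 libraries a group, these values cannot settle whether the cultures were paired. With the replicate block the higher and lower counts were 9 and 11, 18 and 32, 22 and 34, 13 and 16, and 0 and 0, in the order NRF2 with DMSO, romidepsin in EV, romidepsin in NRF2, NRF2 with romidepsin and interaction. With 3 libraries a group, changes under 1.5-fold are the least settled, and Mrpl23, at 2.25 to 8.76 CPM, has the lowest counts.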
